A study of Homo sapiens with 18 samples.

Results

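Human chromosome 19 carries the densest collection of zinc finger genes in the genome, and the genes described here are its protein-coding members with a symbol of ZNF followed by a number. On GRCh38, 241 genes had that name and position, and 196 of them reached a mean of at least 1 CPM (gene counts scaled to the library's summed gene counts) over all 18 libraries. These 196 genes are called the members. They were chosen by their mean level, so their levels are given as a description and no test of the level is made. The 196 members are part of 60609 gene identifiers in the count tables and of 20920 genes that passed a filter on low counts, as all members did.

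Most proteins of this family join a KRAB domain to an array of C2H2 zinc fingers. The fingers read DNA, often the sequence of a transposable element, and the KRAB domain recruits TRIM28 (KAP1), which brings the histone methyltransferase SETDB1 and HP1 proteins and so forms repressive chromatin. The genes arose by repeated duplication in tandem, and neighbours therefore resemble each other in sequence.

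The libraries were made from polyadenylated RNA of OCI-AML1, an established leukaemia line of myeloid origin. Its cells had received DMSO (the vehicle), AML874 or SEL120-34A, and were taken 8 h or 24 h later. The 6 groups held 3 libraries each, all of the same line, with a wild-type genotype in the labels. SEL120-34A is an inhibitor of the Mediator kinases CDK8 and CDK19, AML874 is known here by its code name alone, and no dose is given for either. The labels do not say whether the 3 libraries of a group came from separate cultures, so a p-value here reflects only how far these libraries scatter, which may be technical.

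Gene counts per library ranged from 98975944 to 142496541. The line expressed SPI1, LYZ, PTPRC and CD33 (medians of 223, 270.8, 92.8 and 79.1 TPM), whereas CD14 and KIT lay at or below 0.29 TPM. Defining markers of T cells, erythroid cells, epithelium and fibroblasts stayed at or below 0.46 TPM in every library. PECAM1 was present at 14.8 to 25.4 TPM, with VWF and CDH5 at or below 0.05. In bulk RNA, fewer cells of a type and less RNA per cell cannot be told apart.

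Levels of different members are compared per length, in TPM (scaled for transcript length and depth, as the authors' files give them). The mean TPM over all libraries ran from 0.69 for ZNF132 to 65.4 for ZNF146, with a median of 6.03. ZNF146, which consists of little more than zinc fingers and has no KRAB domain, was followed by ZNF428 (44.5 TPM), ZNF317 (43.8), ZNF787 (34.1) and ZNF93 (33.7). Inside the threshold lay ZNF404, ZNF132 and ZNF575, with mean levels of 1.03, 1.497 and 1.70 CPM, and just outside it ZNF610, ZNF439 and ZNF221, with 0.919, 0.905 and 0.876 CPM. Of the 45 candidates under the threshold, 20 passed the filter and 5 had no count in any library, where 3 counts would be 0.0211 to 0.0303 CPM. ZNF568, a known developmental KRAB zinc finger gene, was among those under the threshold.

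In the longest coding sequence of each member, 195 of 196 held at least 1 C2H2 finger by pattern. The exception was ZNF738, with a coding sequence of 137 residues. The median member had 12 fingers and 575 residues, and ZNF91 had the most fingers (31). A pattern for the KRAB A box matched 134 of the 196. The pattern is strict, since ZNF224, a known KRAB protein, had no match, and a missing match does not show that the domain is absent.

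Promoter sequence is shown for ZNF93, ZNF66, ZNF91 and ZNF90, because these 4 genes of one gene cluster have much alike promoters and differ in response, and for ZNF837 as a responding gene from another cluster. The letters run from position -250 to -90 before the RefSeq start (GRCh38.p14), 5′ to 3′ on the gene's strand, upstream of every annotated start of these genes. Capitals mark GGGCGG or its reverse complement CCGCCC, the letters bound by SP factors.
ZNF93, chr19:19900696-19900856, plus strand: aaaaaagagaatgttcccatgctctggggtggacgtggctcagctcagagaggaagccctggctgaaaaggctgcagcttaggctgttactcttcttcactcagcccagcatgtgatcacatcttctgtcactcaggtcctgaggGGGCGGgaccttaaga
ZNF66, chr19:20776054-20776214, plus strand: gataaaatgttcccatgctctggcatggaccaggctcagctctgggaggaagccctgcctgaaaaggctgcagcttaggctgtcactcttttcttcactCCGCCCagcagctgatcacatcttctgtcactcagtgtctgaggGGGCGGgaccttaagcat
ZNF91, chr19:23395561-23395721, minus strand: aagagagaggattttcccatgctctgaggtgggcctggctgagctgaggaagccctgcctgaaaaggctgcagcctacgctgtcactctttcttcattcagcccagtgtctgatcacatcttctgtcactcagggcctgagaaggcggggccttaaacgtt
ZNF90, chr19:20077750-20077910, plus strand: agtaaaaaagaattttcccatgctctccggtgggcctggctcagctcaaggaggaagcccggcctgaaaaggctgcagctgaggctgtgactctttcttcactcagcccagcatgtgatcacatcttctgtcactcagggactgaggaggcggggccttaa
ZNF837, chr19:58381120-58381280, minus strand: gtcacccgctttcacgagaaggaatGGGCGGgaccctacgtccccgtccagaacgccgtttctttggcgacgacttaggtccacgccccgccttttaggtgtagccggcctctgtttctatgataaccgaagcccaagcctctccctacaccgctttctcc
Aligned over these 161 bases, ZNF93 was identical to ZNF90 at 142 positions (88.2%), to ZNF66 at 140 (87.0%) and to ZNF91 at 135 (83.9%). ZNF837 was identical to ZNF93 at 75 positions (46.6%). Within the printed stretch the SP letters occurred in ZNF93, ZNF66 and ZNF837 and were not found in ZNF91 and ZNF90, which says only that these letters are not there. In the part between the printed stretch and the start, they occurred in ZNF93 at position -28 and in ZNF91 at -30, and ZNF66 and ZNF91 held the ETS letters CTTCCGG, the reverse complement of CCGGAAG, at positions -23 and -24.

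At 24 h, more members were higher than lower with either compound. With AML874, 65 members rose and 17 fell, against 23.1% and 23.7% of all genes tested that rose and fell. With SEL120-34A, 59 rose and 17 fell, against 19.1% and 18.6% of all genes tested. As shares of the 196 members these are 33.2% and 8.67% for AML874 and 30.1% and 8.67% for SEL120-34A. A gene is called where the edgeR quasi-likelihood test gives a Benjamini-Hochberg adjusted p under 0.05 over all genes tested in that comparison, and "rose" and "fell" are used of called genes only. Both comparisons at a given time use the same DMSO libraries, so the 2 comparisons are not independent.

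The changes were small. At 24 h the members' median log2 change was 0.06 (AML874) and 0.04 (SEL120-34A), where the median over all genes tested was 0.00 and 0.01. A change of at least 2-fold was reached by 1 member with either compound (ZNF93), and a change of at least 1.5-fold by 5 and 2 members. Among other protein-coding genes on chromosome 19 with a mean of at least 1 CPM, 143 of 635 rose and 265 fell with AML874, and 144 rose and 184 fell with SEL120-34A. Of 197 ZNF genes on other chromosomes, 59 rose and 54 fell with AML874, and 44 rose and 36 fell with SEL120-34A. Falls were a smaller share of the members (8.67%) than of protein-coding genes at the same mean CPM (38.9% with AML874 and 29.7% with SEL120-34A). Members were also called less often in either direction, 41.8% against 63.9% with AML874 and 38.8% against 52.6% with SEL120-34A. Over the 4 comparisons with DMSO, 23.0% to 25.3% of those protein-coding genes rose. Among called genes, rises were 79.3% of members and 39.1% of protein-coding genes with AML874, and 77.6% and 43.7% with SEL120-34A. These shares are descriptions of the lists, and no test was made over a list.

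**Figure D1:**
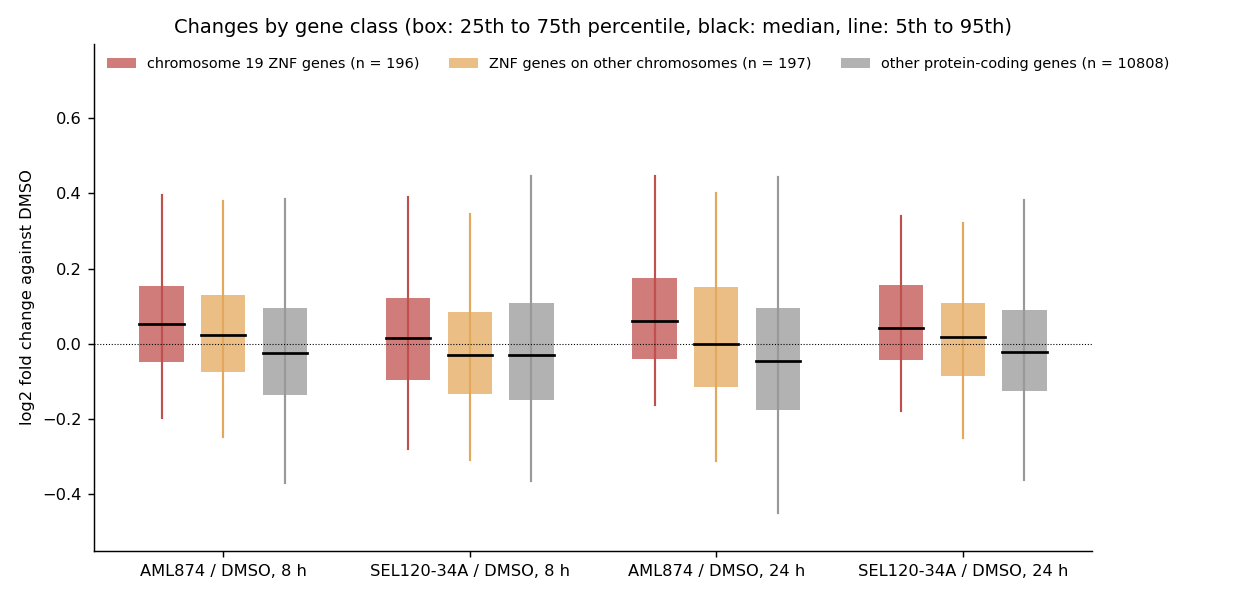
Log2 fold change against DMSO of the 196 chromosome 19 ZNF genes (red), the 197 ZNF genes elsewhere (orange) and 10808 other protein-coding genes (grey) of at least 1 CPM, for each compound and time; boxes span the 25th to the 75th percentile, black lines are medians and thin lines run from the 5th to the 95th percentile. The red medians lie above 0 in all 4 comparisons (0.05, 0.02, 0.06 and 0.04) and the grey medians below it. These are values of the fit with all libraries. The members' median with SEL120-34A at 8 h was -0.02 without DMSO 8 h replicate 1 and -0.01 without SEL120-34A 8 h replicate 2.

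ZNF93, a KRAB zinc finger protein known to bind and repress LINE-1 retroelements, showed the largest change of all members at 24 h. It lies at chr19:19900913-19963464 on GRCh38, and its promoter stretch is printed above. With DMSO for 24 h its level was 46.5, 42.9 and 40.9 CPM (scaled by the TMM method, as all CPM of single libraries here). With AML874 it was 89.7, 84.0 and 88.2 CPM, and with SEL120-34A 88.0, 91.1 and 89.4 CPM. Every treated library lay far above every DMSO library, and the libraries of the compounds overlapped. The log2 change was 1.01 ± 0.06 (SE) with AML874 and 1.04 ± 0.06 with SEL120-34A (edgeR quasi-likelihood test, Benjamini-Hochberg adjusted p = 2.95e-10 and 3.37e-10).

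At 8 h the rise of ZNF93 was smaller. The DMSO libraries had 36.5, 35.9 and 42.4 CPM, the AML874 libraries 48.7, 47.8 and 47.8 CPM and the SEL120-34A libraries 50.7, 56.1 and 51.2 CPM, again without overlap. The log2 change was 0.33 ± 0.06 with AML874 and 0.46 ± 0.06 with SEL120-34A (edgeR adjusted p = 0.000251 and 6.61e-06). The change at 24 h exceeded that at 8 h by 0.68 ± 0.08 with AML874 and by 0.58 ± 0.08 with SEL120-34A (edgeR test of the difference, adjusted p = 1.35e-05 and 4.96e-05). Because tandem copies share sequence, the counts of uniquely aligned reads were set beside RSEM expected counts, which divide ambiguous reads among genes, and these gave 1.00 and 1.05 for ZNF93 at 24 h.

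ZNF90, the next gene of the list but one along the chromosome (chr19:20077994-20127076), moved the other way. With DMSO for 24 h it stood at 17.4, 18.9 and 19.7 CPM, with AML874 at 16.9, 16.9 and 16.4 CPM and with SEL120-34A at 14.8, 16.4 and 15.0 CPM. All treated libraries were below all DMSO libraries at that time, by a narrow margin. ZNF90 fell by 0.16 ± 0.04 on the log2 scale with AML874 and by 0.28 ± 0.05 with SEL120-34A (edgeR adjusted p = 0.00376 and 5.99e-06). It also fell at 8 h, by 0.12 with AML874 and by 0.19 with SEL120-34A (edgeR adjusted p = 0.0262 and 0.000714). The fall with AML874 was not called without DMSO 24 h replicate 3 (log2 change -0.12, adjusted p = 0.053), nor, at 8 h, without AML874 8 h replicate 2 (-0.13, adjusted p = 0.053), with library totals in place of TMM (-0.08) or with RSEM expected counts (-0.11). Between them lies ZNF682, with log2 changes of -0.03 and -0.13 at 24 h that were not called.

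ZNF66 and ZNF91, the other genes whose promoters are printed, were higher. ZNF66 had 9.61, 10.5 and 12.1 CPM with DMSO for 24 h, 12.3, 12.1 and 13.0 CPM with AML874 and 11.8, 14.2 and 12.8 CPM with SEL120-34A. Its treated and DMSO libraries overlapped at 24 h, through the highest DMSO library, and were apart at 8 h. The log2 change was 0.26 and 0.37 at 8 h and 0.21 and 0.26 at 24 h with AML874 and SEL120-34A, all called by the edgeR test. The call with AML874 at 24 h was lost without DMSO 24 h replicate 1 (0.14), DMSO 24 h replicate 2 (0.19) or AML874 24 h replicate 3 (0.18), and that with SEL120-34A at 24 h in a model of only the groups compared (0.26, adjusted p = 0.063).

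ZNF91, known to repress SVA retroelements, had 32.8, 32.7 and 36.5 CPM with DMSO for 24 h, 42.0, 36.1 and 46.6 CPM with AML874 and 40.9, 48.3 and 42.4 CPM with SEL120-34A. One AML874 library lay below the highest DMSO library, and the SEL120-34A libraries were apart from DMSO. The log2 change was 0.29 ± 0.09 and 0.36 ± 0.09 (edgeR adjusted p = 0.0158 and 0.00495). The call with AML874 was lost without DMSO 24 h replicate 1 (0.26), DMSO 24 h replicate 2 (0.26) or AML874 24 h replicate 3 (0.20). At 8 h the change of ZNF91 was 0.20 with AML874, not called, and 0.26 with SEL120-34A, called, and the latter call was lost without DMSO 8 h replicate 1 (0.22), DMSO 8 h replicate 2 (0.22) or any 1 of the SEL120-34A 8 h libraries (0.25 each). In a model of only the groups compared the change of ZNF91 with AML874 at 24 h was 0.29 and not called.

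ZNF93, ZNF90, ZNF66 and ZNF91 belong to a cluster of 29 members from ZNF101 to ZNF254 (positions 19668796 to 24129961), where clusters are split at gaps of more than 1 Mb between gene starts. In this cluster 15 members rose and 1 fell at 24 h with AML874, and likewise 15 and 1 with SEL120-34A, ZNF90 being the fall in both. Of all genes tested, 23.1% rose and 23.7% fell with AML874 at 24 h and 19.1% and 18.6% with SEL120-34A, and at 8 h the shares were 19.7% and 19.9% and 22.4% and 22.6%. These are the shares to set beside every count by cluster. The median log2 change was 0.15 with either compound, the largest median among the 7 clusters of at least 5 members. Leaving out each library in turn gave 11 to 15 rises and 0 to 1 falls with AML874 and 12 to 16 rises and 1 fall with SEL120-34A. At 8 h, 7 members rose and 1 fell with AML874, and 7 rose and 10 fell with SEL120-34A, a contrast of counts that was not tested. In the direct test of each gene at 8 h, 13 members of the cluster were higher with AML874 than with SEL120-34A and 2 lower. Of all genes tested, 16.0% and 15.2% were higher and lower in that comparison. Leaving out 1 library gave 6 to 8 rises and 1 to 2 falls with AML874, and 4 to 7 rises and 5 to 10 falls with SEL120-34A at 8 h, where 4 rose and 5 fell without SEL120-34A 8 h replicate 3 and 4 rose and 9 fell without DMSO 8 h replicate 1. With library totals in place of TMM the counts against DMSO at 8 h became 12 and 0 with AML874 and 10 and 3 with SEL120-34A. Under that scaling 25.1% and 14.5% of all genes tested rose and fell with AML874, and 29.7% and 15.0% with SEL120-34A.

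Of its other members, ZNF253 lies beside ZNF93 and rose by 0.19 and 0.22 at 24 h (log2 change with AML874 and SEL120-34A). ZNF43 rose by 0.33 and 0.27, ZNF681 by 0.45 and 0.31, and ZNF726 by 0.29 and 0.38, all called by the edgeR test. ZNF253 with DMSO for 24 h stood at 42.3, 43.4 and 42.3 CPM, with AML874 at 48.0, 48.3 and 50.2 CPM and with SEL120-34A at 48.1, 50.04 and 51.2 CPM. The treated libraries of ZNF253 did not overlap with DMSO. These 4 genes were chosen after their values were seen.

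The plot in order along the chromosome shows the other clusters. In the cluster of 48 members nearest the end of the long arm, from ZNF628 to ZNF446, 14 rose and 5 fell with AML874 and 12 rose and 4 fell with SEL120-34A at 24 h, against 7 and 8 and 5 and 12 at 8 h. With library totals in place of TMM the counts of this cluster at 8 h were 14 and 7 and 10 and 8, so that rises outnumbered falls. Under that scaling rises outnumbered falls at 8 h over all genes tested as well. Without DMSO 24 h replicate 1 the falls of this cluster with AML874 at 24 h numbered 2. In the cluster of 33 members from ZNF175 to ZNF331, 8 rose and 4 fell and 10 rose and 4 fell at 24 h, and 11 and 5 and 14 and 5 at 8 h. Clusters of 20 members from ZNF653 to ZNF791 and from ZNF565 to ZNF573 had 4 to 7 rises and 0 to 3 falls at 24 h. The cluster of 18 members from ZNF575 to ZNF296 had 6 rises and 0 falls with AML874 and 1 rise and 3 falls with SEL120-34A at 24 h, and that of 13 members from ZNF557 to ZNF846 had 6 and 2 and 5 and 2.

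**Figure D2:**
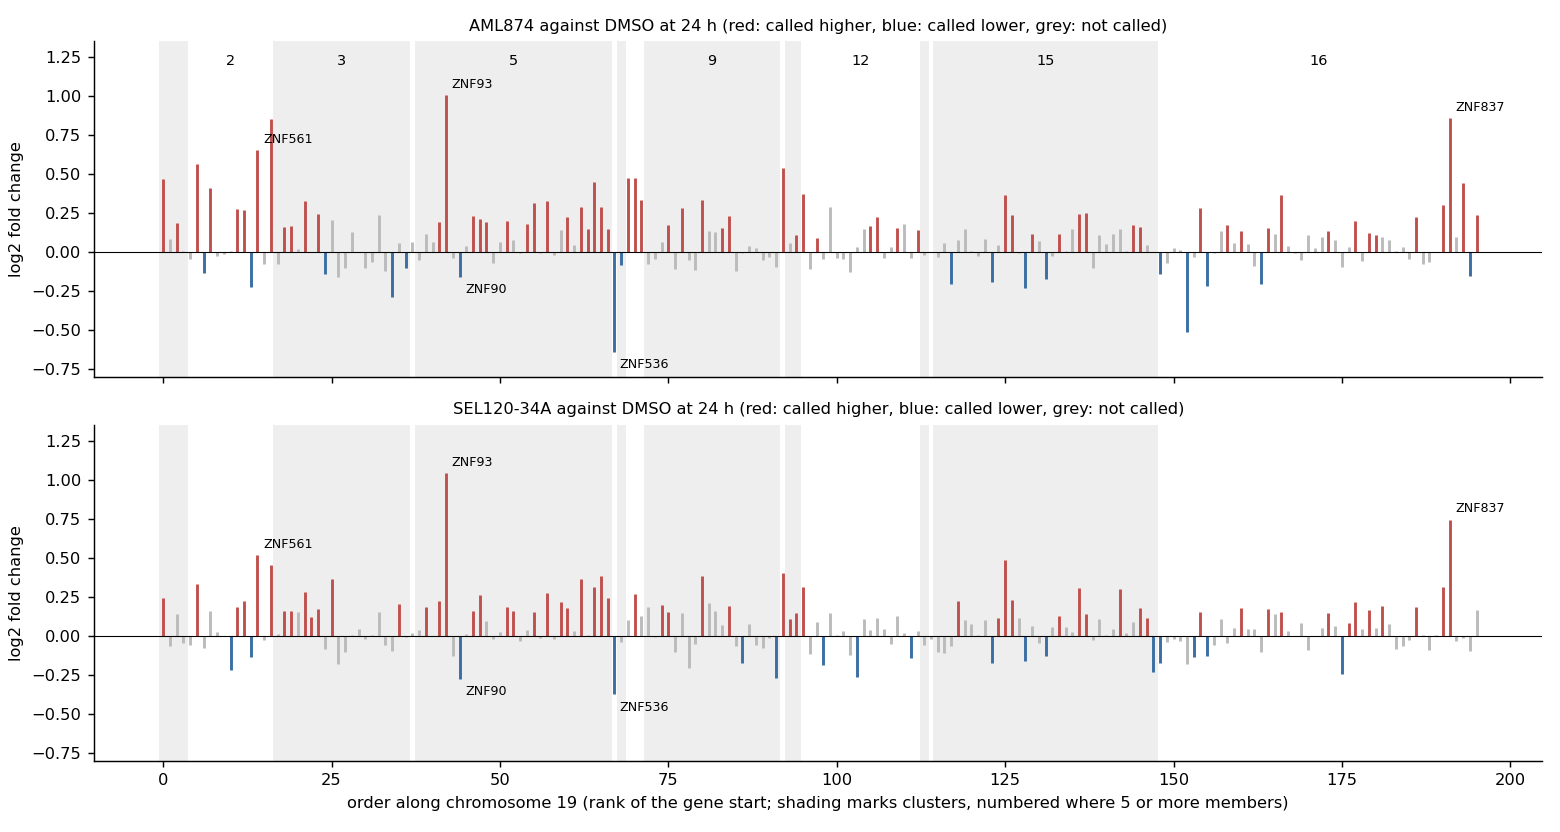
Log2 fold change against DMSO at 24 h (vertical) of each of the 196 members in order of their position on chromosome 19 (horizontal, rank), with AML874 above and SEL120-34A below; red lines are called higher, blue lines called lower and grey lines not called, and shading separates clusters. Cluster 5, with ZNF93, has 15 red lines and 1 blue line in either panel.

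Outside that cluster, ZNF837 had the largest rise at 8 h with either compound. With DMSO for 8 h it stood at 2.34, 2.38 and 2.17 CPM, with AML874 at 4.56, 3.90 and 4.26 CPM and with SEL120-34A at 4.43, 4.45 and 4.31 CPM. The lowest treated library was well above the highest DMSO library. The log2 change was 0.88 ± 0.09 and 0.94 ± 0.09 at 8 h and 0.86 ± 0.09 and 0.74 ± 0.09 at 24 h (edgeR adjusted p from 7.72e-11 to 2.57e-08). For ZNF837 the change at 24 h minus that at 8 h was -0.02 and -0.19 and was not called.

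ZNF561, a KRAB zinc finger gene at chr19:9604680-9621399 and the sixth most abundant member per length, rose in steps. With DMSO it had 52.7, 51.5 and 56.0 CPM at 8 h and 53.5, 53.4 and 51.9 CPM at 24 h. With AML874 it had 72.2, 75.1 and 73.8 CPM at 8 h and 82.9, 83.9 and 82.9 CPM at 24 h. The SEL120-34A libraries lay between, at 64.4, 69.7 and 63.3 CPM and at 74.1, 78.5 and 74.5 CPM. None of these groups overlapped within a time. On the log2 scale the change was 0.46 and 0.30 at 8 h and 0.65 and 0.52 at 24 h with AML874 and SEL120-34A, each with an SE of 0.03 (edgeR adjusted p from 1.2e-17 to 3.94e-09).

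ZNF846 lies in the same cluster as ZNF561 and was far less abundant (1.72 against 32.4 TPM). It had 1.84, 1.53 and 2.14 CPM with DMSO for 24 h, 3.31, 3.69 and 2.97 CPM with AML874 and 2.54, 2.699 and 2.32 CPM with SEL120-34A. The order of the groups was the same in every library, with the AML874 libraries highest. On the log2 scale the change was 0.85 ± 0.11 with AML874 and 0.45 ± 0.12 with SEL120-34A (edgeR adjusted p = 9.55e-08 and 0.00212). ZNF358, whose product lacked the KRAB pattern, rose at 24 h, by 0.56 ± 0.06 with AML874 and by 0.33 ± 0.06 with SEL120-34A (edgeR adjusted p = 3.5e-08 and 0.00016) and had changes of 0.10 and 0.07 at 8 h that were not called.

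**Figure D3:**
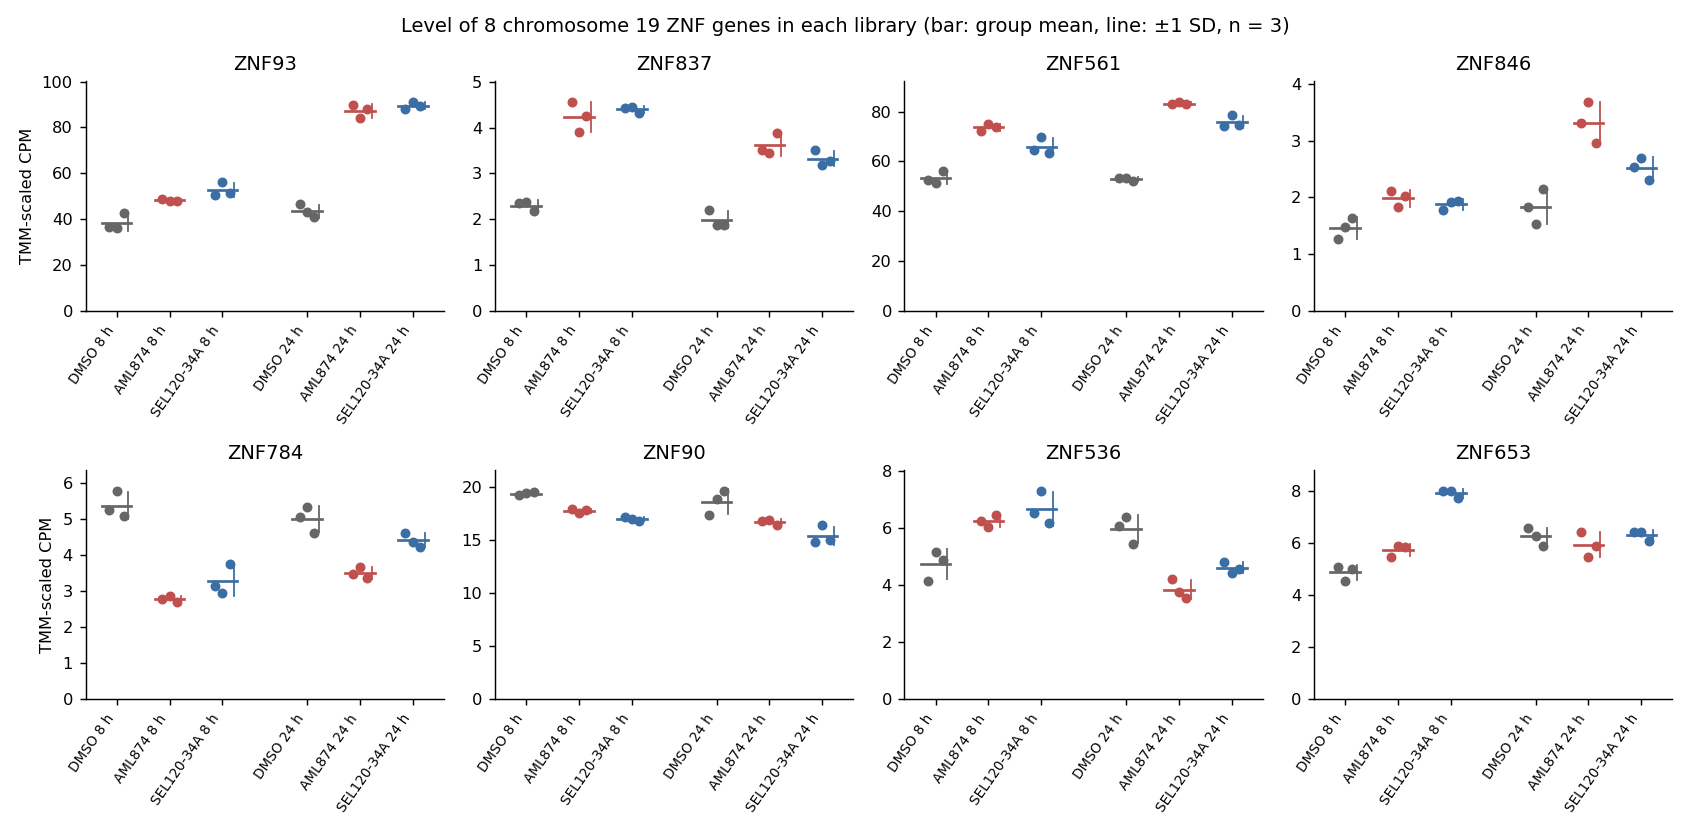
TMM-scaled CPM (vertical, from 0) of 8 members in each of the 18 libraries, by group; points are libraries, bars group means and lines 1 SD (n = 3). ZNF93, ZNF837, ZNF561 and ZNF846 are higher in all treated groups, ZNF784 and ZNF90 lower, ZNF536 is higher at 8 h and lower at 24 h, and ZNF653 is highest with SEL120-34A at 8 h.

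The falls at 24 h were few and mostly small. ZNF536, which is better known from the developing brain and lacks a KRAB domain, fell most, by 0.64 ± 0.08 with AML874 and by 0.37 ± 0.08 with SEL120-34A (edgeR adjusted p = 7.18e-08 and 0.000363). ZNF784 fell by 0.51 ± 0.08 with AML874 and had a change of -0.18 with SEL120-34A that was not called (edgeR adjusted p = 3.73e-06 and 0.0817). ZNF443, ZNF808, ZNF121 and ZNF787 fell by 0.28, 0.23, 0.22 and 0.22 with AML874. With SEL120-34A, ZNF90, ZNF573, ZNF222, ZNF530 and ZNF331 fell by 0.28, 0.27, 0.27, 0.25 and 0.23. The call of ZNF222 was lost without DMSO 24 h replicate 1 (-0.23), DMSO 24 h replicate 3 (-0.26) or SEL120-34A 24 h replicate 3 (-0.21), and that of ZNF573 without DMSO 24 h replicate 2 (-0.25).

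At 8 h with AML874, 55 members rose and 22 fell, against 19.7% and 19.9% of all genes tested, and the median log2 change was 0.05. The largest rises after ZNF837 were ZNF404 (0.63 ± 0.18), ZNF554 (0.54 ± 0.10), ZNF563 (0.52 ± 0.10), ZNF561 (0.46 ± 0.03) and ZNF846 (0.44 ± 0.12), the last not called without DMSO 8 h replicate 1 (0.34). ZNF404 is the member nearest the threshold and had 0.593, 0.709 and 0.668 CPM with DMSO at 8 h, so its mean reached 1 CPM through the other groups, and its rise from DMSO at 8 h is in part fixed by that choice and supports nothing. ZNF784, a short protein with 6 fingers, fell most. Its level was 5.27, 5.80 and 5.08 CPM with DMSO, 2.80, 2.87 and 2.72 CPM with AML874 and 3.14, 2.97 and 3.77 CPM with SEL120-34A. The groups were apart, and ZNF784 fell by 0.95 ± 0.09 with AML874 and by 0.71 ± 0.09 with SEL120-34A (edgeR adjusted p = 4.19e-11 and 1.28e-08).

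ZNF433 fell by 0.72 ± 0.12 with AML874 at 8 h, from 2.84, 2.23 and 2.84 CPM to 1.52, 1.603 and 1.68 CPM, without overlap (edgeR adjusted p = 1.2e-05). ZNF552, ZNF543, ZNF787 and ZNF772 fell by 0.34, 0.24, 0.22 and 0.20. With library totals in place of TMM, 77 members rose and 10 fell with AML874 at 8 h, and the median over all genes tested moved to 0.05. Under that scaling 25.1% of all genes tested rose and 14.5% fell. The share of rises among the called members was 71.4% with TMM and 88.5% with library totals.

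At 8 h with SEL120-34A, rises and falls were closer in number: 48 members rose and 39 fell, against 22.4% and 22.6% of all genes tested, with a median log2 change of 0.02. ZNF653, known as a corepressor of nuclear receptor signalling, rose by 0.70 ± 0.07, from 5.07, 4.56 and 5.01 CPM to 8.01, 7.99 and 7.71 CPM (edgeR adjusted p = 1.84e-10). Its AML874 libraries lay between, at 5.47, 5.89 and 5.87 CPM. ZNF404, with the same limit as for AML874, rose by 0.63, ZNF850 by 0.50, ZNF563 by 0.49 and ZNF536 by 0.49. After ZNF784 the largest falls were ZNF524 (fell by 0.54 ± 0.07), ZNF552 (by 0.41), ZNF320 (by 0.39), ZNF433 (by 0.34) and ZNF787 (by 0.29). The SEL120-34A and DMSO libraries of ZNF433 overlapped. Its call was lost without DMSO 8 h replicate 1 (-0.30), DMSO 8 h replicate 3 (-0.29), SEL120-34A 8 h replicate 1 (-0.28) or SEL120-34A 8 h replicate 3 (-0.27). It was also lost with unstranded counts (-0.13), library totals (-0.28) and a model of only the groups compared (-0.33).

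The split at 8 h with SEL120-34A depended on the scaling and on single libraries. With library totals in place of TMM, 71 members rose and 18 fell, a share of rises among the called of 79.8% against 55.2%. Under that scaling 29.7% of all genes tested rose and 15.0% fell, and their median moved to 0.06. With TMM, 35 members rose and 38 fell without DMSO 8 h replicate 1 (median log2 change -0.02), against 18.7% and 21.4% of all genes tested. Without SEL120-34A 8 h replicate 2, 37 rose and 40 fell (-0.01), against 18.9% and 22.3%. Without any other library compared, rises outnumbered falls. In the main fit 81 of the 196 members were called with libraries that did not overlap, against 42.7% of all genes tested. For AML874 at 8 h and for AML874 and SEL120-34A at 24 h the numbers were 75, 73 and 70, against 37.9%, 44.6% and 35.6%.

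The calls at 8 h and 24 h overlapped in part, and a member called at 1 time alone is not thereby shown to differ between times. Of the 55 members that rose with AML874 at 8 h, 27 (49.1%) also rose at 24 h, where they were 41.5% of the 65 that rose. Of the 22 that fell at 8 h, 10 (45.5%) also fell at 24 h, 58.8% of the 17 that fell. With SEL120-34A, 22 rose at both times (45.8% of 48 and 37.3% of 59) and 7 fell at both (17.9% of 39 and 41.2% of 17). With AML874, 3 members rose at 8 h and fell at 24 h and 2 did the opposite, and the numbers with SEL120-34A were also 3 and 2. The same overlap was not computed over all genes tested, so these numbers are not read as particular to the members.

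ZNF536 changed direction with both compounds. With DMSO it had 4.13, 5.15 and 4.89 CPM at 8 h and 6.08, 6.39 and 5.43 CPM at 24 h. With AML874 it had 6.23, 6.03 and 6.46 CPM at 8 h and 4.19, 3.75 and 3.56 CPM at 24 h, and with SEL120-34A 6.52, 7.30 and 6.15 CPM and then 4.81, 4.42 and 4.56 CPM. The treated libraries were all above DMSO at 8 h and all below it at 24 h. On the log2 scale the change was 0.39 and 0.49 at 8 h with AML874 and SEL120-34A, and the difference between the changes at 24 h and 8 h was -1.03 ± 0.12 and -0.86 ± 0.12 (edgeR adjusted p = 2.53e-08 and 4.86e-07).

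ZNF121, known to bind MYC, also turned. It had 101, 103 and 106 CPM with DMSO, 107, 112 and 115 CPM with AML874 and 123, 116 and 122 CPM with SEL120-34A at 8 h, and 90.8, 91.1 and 93.6, 77.3, 80.7 and 78.6, and 82.3, 84.7 and 83.5 CPM at 24 h in the same order of treatments. Treated libraries were above DMSO at 8 h and below it at 24 h, without overlap. On the log2 scale the change was 0.11 and 0.22 at 8 h and -0.22 and -0.14 at 24 h, and the rise with AML874 at 8 h was not called without DMSO 8 h replicate 1 (0.08) or AML874 8 h replicate 3 (0.07). ZNF331, a member discussed as a tumour suppressor, rose by 0.22 and 0.28 at 8 h and had changes of 0.00, not called, and -0.23, called, at 24 h.

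**Figure D4:**
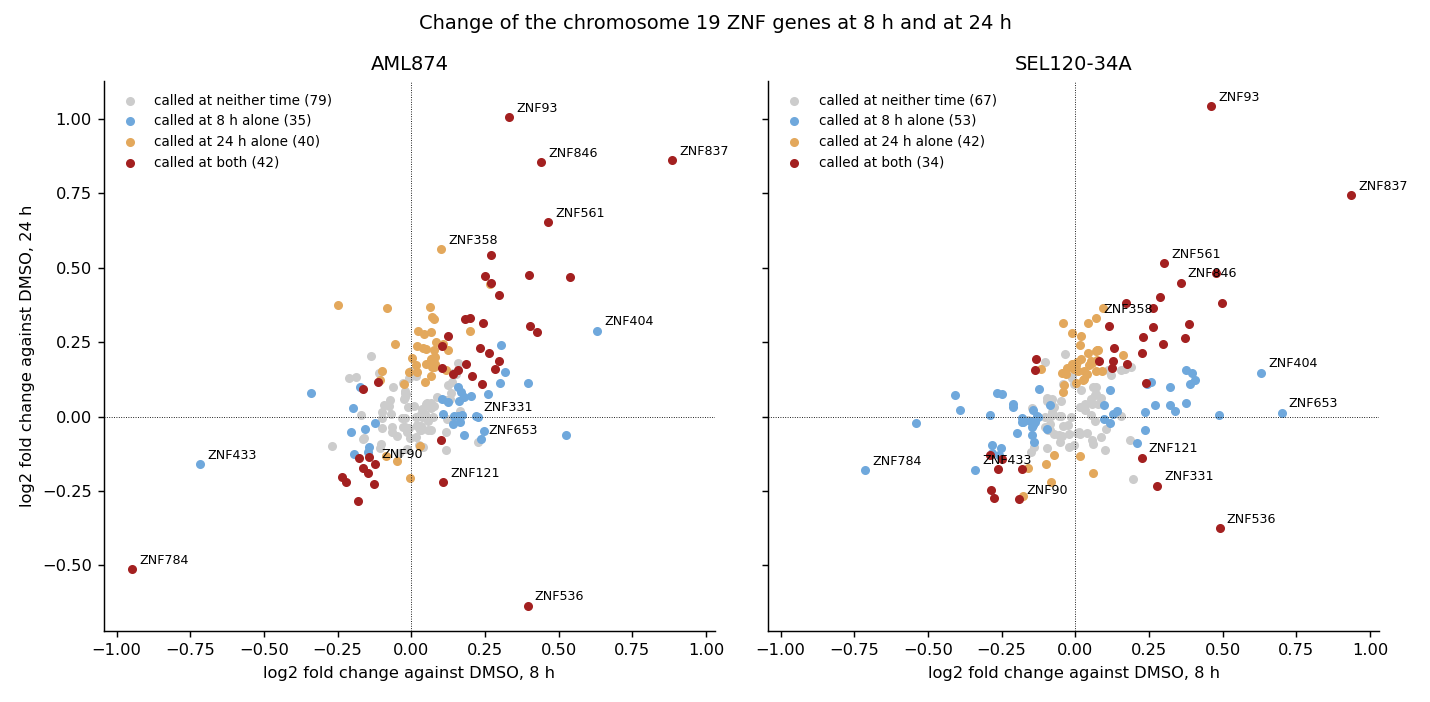
Log2 fold change against DMSO at 8 h (horizontal) and at 24 h (vertical) of the 196 members, for AML874 (left) and SEL120-34A (right); colours show at which time a member was called. ZNF93 lies highest in both panels, ZNF837 farthest right, and ZNF536 below the horizontal line at a positive value at 8 h.

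Tested directly, the effect of AML874 was higher at 24 h than at 8 h for 26 members and lower for 13, against 11.1% and 12.5% of all genes tested. The effect of SEL120-34A was higher at 24 h for 37 members and lower for 12, against 14.2% and 13.0%. With library totals in place of TMM these numbers became 15 and 23 with AML874 and 16 and 32 with SEL120-34A, so the direction in which more members differed turned with the scaling. Under that scaling 8.24% of all genes tested were higher and 18.6% lower with AML874, and 8.66% and 21.1% with SEL120-34A. The members named for this comparison kept their direction in every alternative run. Across the 196 members the changes at 8 h and 24 h had a Pearson r of 0.53 with AML874 and 0.49 with SEL120-34A, a description across genes that are not independent, from different treated and DMSO libraries at the 2 times.

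In all 4 comparisons with DMSO, 12 members rose (ZNF93, ZNF837, ZNF561, ZNF846, ZNF554, ZNF850, ZNF546, ZNF66, ZNF181, ZNF766, ZNF761 and ZNF497) and 4 fell (ZNF90, ZNF787, ZNF628 and ZNF841). Of all genes tested, 6.61% rose and 7.11% fell in all 4. In at least 1 of the 4 comparisons 154 members were called, against 70.8% of all genes tested, and 42 were called in none. ZNF546, with 22 fingers, rose by 0.27 and 0.29 at 8 h and 0.54 and 0.40 at 24 h, and ZNF850, with 29 fingers, by 0.20, 0.50, 0.33 and 0.38 in the same order of AML874 and SEL120-34A at 8 h and then at 24 h. ZNF766 and ZNF761 rose by at most 0.24 and 0.18, and the rise of ZNF761 with AML874 at 8 h was not called when any library compared was left out (0.08 to 0.11). Single libraries also decided calls of ZNF554, ZNF181, ZNF497, ZNF766, ZNF846, ZNF546, ZNF628 and ZNF841 in this group. ZNF554 with SEL120-34A was not called at 24 h without SEL120-34A 24 h replicate 2 (0.14), DMSO 24 h replicate 1 (0.20), DMSO 24 h replicate 2 (0.21) or SEL120-34A 24 h replicate 3 (0.25), and at 8 h without DMSO 8 h replicate 1 (0.24), DMSO 8 h replicate 2 (0.28) or SEL120-34A 8 h replicate 1 (0.23). ZNF181 with AML874 at 8 h was not called without DMSO 8 h replicate 1 (0.24) or 2 (0.16) or any 1 of the AML874 8 h libraries (0.22 to 0.24). With SEL120-34A it was not called at 8 h without DMSO 8 h replicate 1 (0.23) or 2 (0.14) or SEL120-34A 8 h replicate 1 (0.21) or 2 (0.18), and at 24 h without DMSO 24 h replicate 3 (0.23) or SEL120-34A 24 h replicate 3 (0.23). ZNF497 was not called at 24 h without DMSO 24 h replicate 1 (0.24 and 0.25 with AML874 and SEL120-34A), AML874 24 h replicate 2 (0.26) or SEL120-34A 24 h replicate 3 (0.25), nor with SEL120-34A at 8 h without SEL120-34A 8 h replicate 1 (0.26). ZNF846 with SEL120-34A at 8 h was not called without DMSO 8 h replicate 1 (0.26), DMSO 8 h replicate 2 (0.36), SEL120-34A 8 h replicate 2 (0.32) or SEL120-34A 8 h replicate 3 (0.32). ZNF546 with AML874 at 8 h was not called without AML874 8 h replicate 1 (0.19), ZNF628 with AML874 at 24 h without DMSO 24 h replicate 1 (-0.12), AML874 24 h replicate 2 (-0.13) or AML874 24 h replicate 3 (-0.13), and ZNF841 with AML874 at 8 h without AML874 8 h replicate 3 (-0.13). ZNF766 with AML874 at 8 h lost its call without any library compared but AML874 8 h replicate 1 (0.08 to 0.09), and with SEL120-34A at 8 h without SEL120-34A 8 h replicate 2 (0.09).

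The compounds were also compared directly. At 8 h, 44 members were higher with AML874 than with SEL120-34A and 18 lower, against 16.0% and 15.2% of all genes tested. At 24 h, 17 were higher and 5 lower, against 8.0% and 11.6%. At 8 h the number of higher members, 44 with all libraries, was 26 without AML874 8 h replicate 1 and 28 without SEL120-34A 8 h replicate 3. At 24 h it was 11 and 2, in place of 17 and 5, without AML874 24 h replicate 1, and 11 and 3 without SEL120-34A 24 h replicate 3. ZNF836 and ZNF653 differed most at 8 h, being lower with AML874 by 0.56 ± 0.12 and 0.46 ± 0.07 on the log2 scale (log2 differences of -0.56 and -0.46, edgeR adjusted p = 0.000385 and 1.35e-06).

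At 24 h, ZNF846 and ZNF302 were higher with AML874 by 0.40 ± 0.11 and 0.38 ± 0.06, and ZNF784 and ZNF536 lower, with log2 differences of -0.33 ± 0.08 and -0.26 ± 0.09 (edgeR adjusted p = 0.00818, 1.57e-05, 0.0045 and 0.0272). ZNF302 had 7.18, 6.93 and 7.43 CPM with DMSO, 9.89, 9.82 and 10.2 CPM with AML874 and 7.79, 7.604 and 7.68 CPM with SEL120-34A. The SEL120-34A libraries lay just above DMSO and far below AML874. The differences of ZNF846 and ZNF536 lost their call without any of several libraries: ZNF846 without AML874 24 h replicate 2 (0.33) or SEL120-34A 24 h replicate 3 (0.34), and ZNF536 without AML874 24 h replicate 2 (-0.24), AML874 24 h replicate 3 (-0.21), SEL120-34A 24 h replicate 1 (-0.23) or SEL120-34A 24 h replicate 3 (-0.27). For ZNF93 the difference at 24 h was -0.04 with a 95% interval of -0.16 to 0.08, and for ZNF837 0.12 with an interval of -0.06 to 0.29. Both were not called, which does not show that the compounds act alike. Doses are not given, so these are not comparisons at known equal doses.

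With DMSO alone, 40 members were higher at 24 h than at 8 h and 38 lower, against 19.8% and 22.7% of all genes tested. ZNF404, ZNF792 and ZNF160 rose most, by 0.66 ± 0.17, 0.45 ± 0.09 and 0.45 ± 0.12, and that of ZNF404 is again in part fixed by the threshold on the mean. ZNF576, ZNF114 and ZNF480 fell most, by 0.40 ± 0.07, 0.38 ± 0.06 and 0.37 ± 0.07 on the log2 scale (edgeR adjusted p of these 6 from 9.2e-07 to 0.00814). ZNF160 had 28.1, 25.9 and 33.0 CPM at 8 h and 41.9, 38.1 and 38.6 CPM at 24 h, without overlap. With library totals in place of TMM, 58 were higher and 32 lower, a share of higher members among the called of 64.4% against 51.3%. Under that scaling 24.0% of all genes tested were higher and 18.0% lower.

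Members of known role did not move as a block. ZNF274, which recruits SETDB1 to other zinc finger genes, had 9.05, 9.27 and 8.58 CPM with DMSO, 10.7, 9.68 and 10.1 CPM with AML874 and 10.0, 10.2 and 10.9 CPM with SEL120-34A at 8 h. It rose by 0.18 ± 0.06 and 0.21 ± 0.06 at that time (edgeR adjusted p = 0.00948 and 0.00204), the former call being lost without DMSO 8 h replicate 3 (0.13) or AML874 8 h replicate 1 (0.12). At 24 h its changes were -0.06 and -0.09 and not called. ZNF146 fell by 0.16 and 0.18 at 8 h and had changes of -0.04 and -0.01 at 24 h that were not called. ZNF224, a transcriptional repressor, rose with AML874 at 24 h by 0.17 ± 0.04 (edgeR adjusted p = 0.00071), and ZNF808, known from pancreas development, fell with both compounds at 24 h, by 0.23 and 0.16.

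Members were counted by whether the KRAB A box pattern matched. At 24 h, 49 of the 134 with the pattern rose and 7 fell with AML874, and 47 rose and 7 fell with SEL120-34A. Of the 62 without it, 16 rose and 10 fell, and 12 rose and 10 fell. Of all genes tested 23.1% and 23.7% rose and fell with AML874 and 19.1% and 18.6% with SEL120-34A at that time. Falls with AML874 among members with the pattern numbered 4 without DMSO 24 h replicate 1. Among those without it, 7 rose with SEL120-34A without SEL120-34A 24 h replicate 2, and 6 fell without SEL120-34A 24 h replicate 3. At 8 h the counts were 40 and 9 with AML874 and 36 and 23 with SEL120-34A for members with the pattern, and 15 and 13 and 12 and 16 for those without, against 19.7% and 19.9% and 22.4% and 22.6% of all genes tested. Under library totals in place of TMM these became 58 and 4, 50 and 9, 19 and 6, and 21 and 9, so that rises outnumbered falls without the pattern with SEL120-34A too. Under that scaling 25.1% and 14.5% of all genes tested rose and fell with AML874, and 29.7% and 15.0% with SEL120-34A. At 24 h the median log2 change was 0.08 and 0.07 with the pattern and 0.01 and 0.01 without. No test was made of this difference.

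Other sequence features were counted in the same way, with no test between features. Of the 126 members with over 10 fingers 45 rose and 9 fell with AML874 at 24 h (median log2 change 0.08). Of the 70 with up to 10 fingers 20 rose and 8 fell (0.03). With SEL120-34A at 24 h the counts were 43 and 11 (0.05) and 16 and 6 (0.02). Of all genes tested, 23.1% rose and 23.7% fell with AML874 at 24 h, and 19.1% and 18.6% with SEL120-34A. With SEL120-34A at 8 h the medians for over 10 and up to 10 fingers were 0.03 and -0.01. Spearman's rho across the members between the log2 change and the number of fingers was 0.04 to 0.08 in the 4 comparisons with DMSO, and with the mean TPM -0.17 to -0.04 (n = 196 genes, a description). A RefSeq promoter window, from 250 bases before the start to 50 after it, was found for 177 members. The ETS letters CCGGAAG, on either strand, occurred in 78 of them (44.1%), against 10.3% of 35116 promoters and 20.3% of 9038 promoters of other protein-coding genes of at least 1 CPM. With AML874 at 24 h, 26 of the 78 with these letters rose and 5 fell, and of the 99 without them 35 and 11. With SEL120-34A at 24 h the counts were 25 and 9 with the letters and 29 and 7 without. Falls were fewer with the letters than without for AML874 and more for SEL120-34A. The SP letters GGGCGG occurred in 69.5% of the members' windows (45.0% of all promoters and 71.2% of the other coding ones), the YY1 letters AANATGGC in 13.6% (6.58% and 11.0%), the E-box CACGTG in 4.52% (7.26% and 10.6%), the AP-1 letters TGANTCA in 6.21% (7.71% and 4.03%), the NRF1 motif in 1.69% (1.24% and 2.48%) and the TATA box TATAAA in 2.26% (11.5% and 5.19%). A match is a description of letters, not a binding site.

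Genes that act with KRAB zinc finger proteins made a list of 27: TRIM28, SETDB1 and its partner ATF7IP, HP1 proteins, the HUSH complex, histone deacetylases, DNA methylation and H3.3 genes. With AML874, 5 rose and 12 fell at 8 h and 6 rose and 12 fell at 24 h. With SEL120-34A, 4 rose and 13 fell at 8 h and 4 rose and 9 fell at 24 h. The list's median log2 change was -0.05 and -0.08 with AML874 and -0.08 and -0.01 with SEL120-34A at 8 h and 24 h, where the medians over protein-coding genes of at least 1 CPM were -0.02 and -0.04 and -0.03 and -0.02. Falls were 44.4% and 44.4% of the list with AML874 and 48.1% and 33.3% with SEL120-34A, at 8 h and 24 h. Of those protein-coding genes, 31.4% and 38.9% fell with AML874 and 34.7% and 29.7% with SEL120-34A. Rises were 18.5% and 22.2% of the list with AML874 and 14.8% at both times with SEL120-34A. Of those protein-coding genes, 23.0% to 25.3% rose over the 4 comparisons with DMSO. CBX1, CBX3, HDAC1, HDAC2 and UHRF1 fell in all 4 comparisons and CBX5 rose in all 4, although with library totals HDAC2 with SEL120-34A at 8 h had a log2 change of 0.0004 that was not called.

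The HP1 genes moved in different directions. CBX5, which encodes HP1 alpha, had 242 ± 7.82 CPM with DMSO for 8 h, 413 ± 3.87 with AML874 and 355 ± 6.72 with SEL120-34A (SD, n = 3), and rose by 0.77 ± 0.02 and 0.56 ± 0.02 (edgeR adjusted p = 4.1e-23 and 5.02e-19). At 24 h CBX5 had 342 ± 4.76 CPM with DMSO, 418 ± 9.93 with AML874 and 362 ± 3.46 with SEL120-34A. It rose by 0.29 and 0.08 at that time, the latter call being lost without DMSO 24 h replicate 3 (0.07). The treated levels of CBX5 at 24 h were near those at 8 h, and its DMSO level was higher than at 8 h. CBX1 (HP1 beta) fell by 0.29 and 0.22 at 8 h and by 0.24 and 0.18 at 24 h with AML874 and SEL120-34A, and CBX3 (HP1 gamma) by 0.18, 0.16, 0.23 and 0.14 in the same order. UHRF1, which guides maintenance DNA methylation, fell by 0.44, 0.49, 0.37 and 0.18. TRIM28 fell by 0.13, 0.11 and 0.14 with AML874 at 8 h, SEL120-34A at 8 h and AML874 at 24 h, and its change with SEL120-34A at 24 h, -0.01, was not called. With library totals its change with SEL120-34A at 8 h was -0.04 and not called. SETDB1 rose with AML874 at 24 h by 0.08 (edgeR adjusted p = 0.00536), and its other changes, from -0.01 to 0.06, were not called.

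The summed level of the 196 members was 3382 to 3499 CPM with DMSO, 3539 to 3567 with AML874 and 3443 to 3513 with SEL120-34A at 8 h, and 3366 to 3388, 3564 to 3595 and 3491 to 3640 CPM at 24 h. The AML874 libraries lay above the DMSO libraries at both times, and the SEL120-34A libraries above them at 24 h alone. A list of 26 hypoxia and glycolysis genes was read in the same libraries. Its mean log2 CPM was 5.43 to 6.06 in DMSO, 5.28 to 5.33 in AML874 and 5.19 to 5.79 in SEL120-34A libraries at 8 h, and 6.15 to 6.41, 5.70 to 6.05 and 5.76 to 6.20 at 24 h. In DMSO at 8 h (replicate 3) and in SEL120-34A at 8 h and 24 h (replicate 2 in both) the library highest in the hypoxia genes was also highest in the members' sum. In DMSO at 24 h (replicate 1) and AML874 at 8 h (replicate 3) it was lowest in that sum, and in AML874 at 24 h (replicate 1) in the middle. The part of this state in the results was not tested.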

How the data were processed

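The authors deposited, per library, gene counts from STAR 2.7.1a and RSEM 1.3.2 tables of expected counts and TPM on GRCh38, per the submitters' processing notes. Annotation release, library kit and filters are not given in the sources used here. The column of counts on the second read strand was used, and summary lines stayed out of library totals.

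Symbols and positions came from GENCODE 29, coding features from its transcripts, and promoters from RefSeq (GRCh38.p14). Counts of all 18 libraries were fitted in 1 model of 6 groups with edgeR 4.0.16 (filterByExpr, TMM, robust quasi-likelihood test) in R 4.3.3, and p-values were adjusted by Benjamini-Hochberg over all 20920 genes tested. CPM of single libraries are TMM-scaled. The fit was tested on simulated data in which a small set of genes was changed. Such data do not probe how the results depend on the scaling.

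The alternatives were DESeq2 1.42.0, its size factors, library totals, other filters, a replicate block, a fit of just the groups compared, counts without strand, RSEM expected counts rounded to whole numbers, and leave-one-out fits. The members and lists were chosen with earlier results of these data known. Named were up to 6 called members per direction with DMSO, 3 per direction in other comparisons, the most abundant, those of known role and those called in all 4 comparisons. ZNF66, ZNF253, ZNF726, ZNF681, ZNF43, ZNF181, ZNF766, ZNF761 and ZNF497 were added after their values were seen. Precision is limited by 3 libraries per group and 98975944 to 142496541 gene counts per library.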

Additional observations from a re-analysis of the deposited data

Results flagged for a closer look

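The effect of a compound was called different between 8 h and 24 h by the test of the difference itself (edgeR, effect at 24 h minus effect at 8 h). With AML874 this held for 26 members with a higher and 13 with a lower effect at 24 h. ZNF93 had a log2 difference of 0.68, ZNF575 of 0.62, ZNF433 of 0.56, ZNF536 of -1.03, ZNF563 of -0.59 and ZNF121 of -0.33. The call of ZNF433 was lost with RSEM expected counts (0.40, edgeR adjusted p = 0.118). With SEL120-34A it held for 37 higher and 12 lower. ZNF93 had 0.58, ZNF784 0.53, ZNF524 0.52, ZNF536 -0.86, ZNF653 -0.69 and ZNF331 -0.51. The DMSO libraries of the 2 times are separate, and ZNF536, ZNF653 and ZNF93 also differed between them (0.33, 0.36 and 0.18 higher at 24 h), ZNF93 no longer without DMSO 24 h replicate 1 (0.13) or DMSO 8 h replicate 2 (0.15).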

How the results depend on the processing

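Of 294 called results of named genes, 86 lost the call under at least 1 alternative, and of 9132 recomputed values 8666 kept direction and call, 312 lost the call, 149 gained one and 5 turned. With library totals alone, 77 members rose and 10 fell with AML874 and 71 and 18 with SEL120-34A at 8 h. The differences between times became 15 and 23 (AML874) and 16 and 32 (SEL120-34A), and DMSO over time 58 and 32. In each of these comparisons the shares of all genes tested moved the same way as the members, as given above. This setting differs from the main fit only in leaving out the TMM factors. They were 0.971 to 0.979 in DMSO 8 h, 1.000 to 1.022 in treated 8 h and 0.986 to 1.016 in 24 h libraries. Why the factors differ between groups was not tested. With at least 1 CPM in 3 libraries, 27 members were higher with AML874 than with SEL120-34A at 24 h, and DESeq2 gave 9 lower there; the cause was not tested. The 5 that turned were ZNF132 with SEL120-34A in unstranded counts (0.34 at 8 h, 0.27 at 24 h), ZNF320 in DMSO over time with RSEM (-0.23), and HDAC2 (0.0004) and SETDB1 (0.0599) with SEL120-34A at 8 h with library totals.

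Leaving out 1 library gave 42 to 47 rises and 20 to 24 falls with AML874 and 35 to 45 and 31 to 40 with SEL120-34A at 8 h, 55 to 59 and 12 to 16 and 43 to 61 and 11 to 17 at 24 h, 26 to 42 and 14 to 17 between compounds at 8 h, 11 to 24 and 2 to 7 at 24 h, and 36 to 48 and 31 to 37 for DMSO over time. The differences between times ranged over 21 to 30 and 6 to 14 with AML874 (6 without AML874 8 h replicate 2, 7 without AML874 8 h replicate 1, 8 without DMSO 8 h replicate 1) and 26 to 38 and 10 to 14 with SEL120-34A. Falls with SEL120-34A at 24 h numbered 11 without SEL120-34A 24 h replicate 3.

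With a replicate block the counts were 56 and 22, 48 and 38, 65 and 17, 58 and 17, 42 and 18, 16 and 5, 41 and 37, 25 and 12, and 34 and 12, in the order AML874 and SEL120-34A at 8 h, the same at 24 h, the compounds at 8 h and 24 h, DMSO over time and the differences between times for AML874 and SEL120-34A. Libraries of the same number had correlations of -0.324 to 0.244 over 12986 genes. Libraries of different numbers were not correlated for reference, so whether the numbers pair the samples was not tested.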

Other observations

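Of the 45 candidates under 1 CPM, 20 passed the filter on low counts. Of these, 5 rose and 0 fell with AML874 at 8 h, 7 and 0 with SEL120-34A at 8 h, 5 and 0 with AML874 at 24 h and 5 and 0 with SEL120-34A at 24 h (edgeR, adjusted over all genes tested). Candidates that passed the filter through the groups where they are high had to differ, so these counts support nothing. Among 11 related zinc finger genes of other names, 5 rose and 2 fell with AML874 at 8 h. The later counts in the same order were 3 and 2, 3 and 1, and 3 and 2. As shares of the 11 these are 45.5% and 18.2%, 27.3% and 18.2%, 27.3% and 9.09%, and 27.3% and 18.2%. Of all genes tested, 19.7% and 19.9%, 22.4% and 22.6%, 23.1% and 23.7%, and 19.1% and 18.6% rose and fell. With 11 genes, no result is read from these counts.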
